A study of Homo sapiens with 18 samples.

Results

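The S100 genes encode a family of small calcium-binding proteins. The 10 members described here, S100A2, S100A3, S100A4, S100A6, S100A10, S100A11, S100A13, S100A14, S100A16 and S100P, were taken by symbol from a list of named genes and matched to 10 of the 58302 Ensembl genes in the expression table. They were measured in PANC-1, an established line from a human pancreatic ductal carcinoma. The control cells (shCtrl) carried a control shRNA vector, which the labels call empty while the study's oligo list names a non-targeting hairpin, and the KD cells (shNAT10) carried a vector with a hairpin against NAT10, the enzyme that writes N4-acetylcytidine (ac4C) on RNA, and lentivirus delivered both vectors. Which hairpin was used, and whether the cells were 1 clone or a pool, is not given in the sources used here. Each group had 3 RNA-seq libraries, and for acRIP-seq, in which fragments of total RNA are pulled down with an antibody against ac4C (IP) and compared with unselected fragments (input), each group had 3 IP and 3 input libraries. The comparison asks how the S100 mRNAs, and the acRIP peaks on them, differ between cells with and without NAT10 KD. Nothing states that libraries of a group came from separate cultures, so the p-values measure the spread between libraries, which may be technical.

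S100 proteins mostly form dimers. Each chain holds a pair of EF-hands, helix-loop-helix units in which the loop holds the calcium ion, and binding of calcium opens a surface that docks onto a partner such as an annexin or a myosin. The N-terminal loop is peculiar to the family, while the C-terminal loop has the common EF-hand form. Many S100 proteins are also released from cells and bind receptors such as RAGE, and several, among them S100A4, S100A6, S100A11 and S100P, are long known as genes that are raised in pancreatic cancer.

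The stretches of coding sequence that lay under acRIP peaks of 4 members are shown, because each holds the C-terminal loop, which has the common EF-hand form. A loop was found as 12 residues with aspartate at position 1, aspartate, asparagine or serine at positions 3 and 5, and glutamate at position 12, in the translation of the GENCODE v29 coding sequences. Sequences read 5′ to 3′ along the mRNA, on the minus strand of GRCh38, and capitals mark the bases of the loop. The stretches lie at chr1:153543762-153543923 for S100A4, chr1:152032665-152032823 for S100A11, chr1:153607537-153607661 for S100A16 and chr1:153618907-153619038 for S100A13.
S100A4: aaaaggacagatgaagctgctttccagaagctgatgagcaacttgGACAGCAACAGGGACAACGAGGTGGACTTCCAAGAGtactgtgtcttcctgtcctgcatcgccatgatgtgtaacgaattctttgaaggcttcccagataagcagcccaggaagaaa
S100A11: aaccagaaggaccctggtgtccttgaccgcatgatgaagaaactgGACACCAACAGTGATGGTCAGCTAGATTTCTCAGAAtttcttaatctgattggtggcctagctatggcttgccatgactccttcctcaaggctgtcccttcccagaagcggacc
S100A16: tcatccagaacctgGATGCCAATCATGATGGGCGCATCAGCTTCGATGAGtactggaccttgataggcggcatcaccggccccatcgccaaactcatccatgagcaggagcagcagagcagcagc
S100A13: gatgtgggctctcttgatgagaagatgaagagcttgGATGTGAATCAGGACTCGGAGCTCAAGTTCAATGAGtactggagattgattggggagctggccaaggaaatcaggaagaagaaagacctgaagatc
The stretches of S100A4, S100A11 and S100A16 lay under peaks of both groups and that of S100A13 under a peak of shNAT10 cells alone.

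The loop was found in 8 of the 10 members and not in S100A10 or S100A14, in which the C-terminal loop is known to have lost the residues that bind calcium. The loops of 5 members are set side by side to show which bases they share. The search pattern sets some residues of every loop, so shared bases do not measure how closely the genes are related. Capitals now mark bases equal to the base of S100A4 at the same place of the loop. The loops lie at chr1:153543843-153543878 for S100A4, chr1:153534753-153534788 for S100A6, chr1:153547766-153547801 for S100A3 and chr1:153561511-153561546 for S100A2, all on the minus strand, and at chr4:6696938-6696973 on the plus strand for S100P.
S100A4: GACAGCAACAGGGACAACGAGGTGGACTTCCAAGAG
S100A6: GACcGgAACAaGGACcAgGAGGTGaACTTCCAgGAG
S100A3: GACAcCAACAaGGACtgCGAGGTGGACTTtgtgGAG
S100A2: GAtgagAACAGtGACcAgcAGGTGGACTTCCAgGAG
S100P: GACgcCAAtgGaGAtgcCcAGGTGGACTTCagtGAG
Of the 36 loop bases, S100A6 shared 29 with S100A4, S100A3 shared 28, S100A2 shared 27 and S100P shared 24. The loops of S100A11, S100A13 and S100A16 shared 23, 20 and 16 bases with it.

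The recovered depth of the RNA-seq lay between 15831720 and 23521762 reads per library. NAT10, the targeted gene, was at 31.6, 27.7 and 28.6 FPKM (fragments counted on a gene, corrected for its length and for library size) in shCtrl and at 7.92, 8.43 and 7.90 FPKM in shNAT10, a log2 fold change of -1.84 ± 0.08 (SE, adjusted p = 3.85e-05). Of 5 epithelial markers, KRT7, KRT8, KRT18 and KRT19 were lower and EPCAM was higher in shNAT10, and the markers together summed to 2787 to 3749 FPKM in shCtrl and 1491 to 1673 FPKM in shNAT10. The 7 myeloid markers summed to 2.51 to 3.20 FPKM in shCtrl and 1.53 to 1.63 in shNAT10, of which CD14 made up most, and S100A8, S100A9 and S100A12 were listed at 0 in every library. The 4 Schwann cell markers summed to at most 0.118 FPKM, with SOX10 and S100B listed at 0. The part of these markers in the S100 results was not tested.

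One library stood apart. In shCtrl replicate 2 the median log2 deviation from the mean of the 6 libraries fell from 0.267 in the shortest 20% of the tested genes to -0.295 in the longest 20%, while the medians of the other 5 libraries lay between -0.089 and 0.113. The S100 mRNAs are short: the 8 tested members had counting lengths of 594 to 2184 bases, against a median of 3278 bases for all tested genes. Of the 10 members, 9 had their highest FPKM in shCtrl replicate 2, as had 33.1% of the tested genes. The fold change of each tested member is therefore given with that library, without it, and after a correction of every library for gene length.

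**Figure D1:**
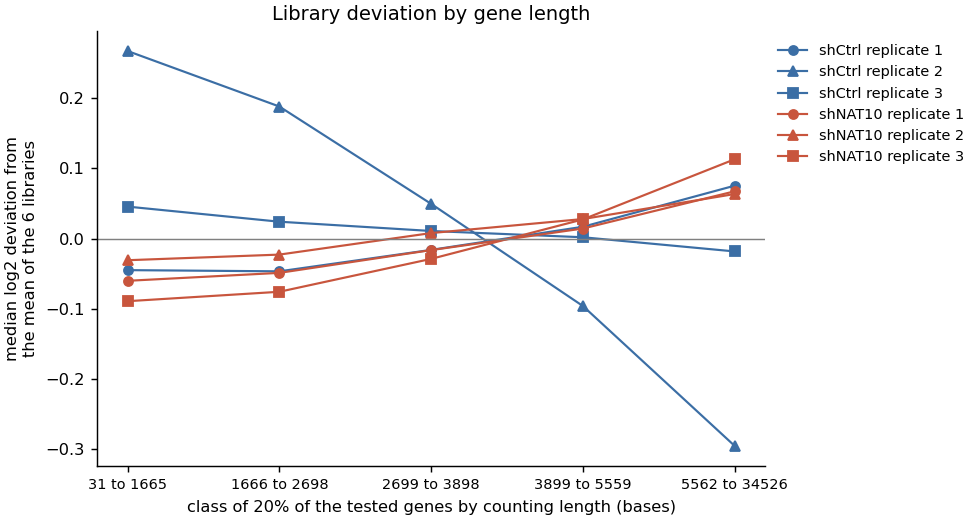
Median deviation of the log2 FPKM of each library (y axis, log2 units) from the mean of the 6 libraries, in classes of 20% of the 12982 tested genes ordered by counting length (x axis, bases). Points are medians over the genes of a class, blue for shCtrl and red for shNAT10. The line of shCtrl replicate 2 runs from 0.267 to -0.295, outside the range of the other 5 libraries at both ends.

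The members spanned a range from 1610 FPKM to 0. In shCtrl the order by mean FPKM was S100A6, S100A10, S100A11, S100A4, S100A16, S100A3, S100A2, S100A13, S100P and S100A14. Neighbours whose shCtrl libraries overlapped were S100A10 with S100A11, S100A2 with S100A13, and S100A13 with S100P, and the other neighbours did not overlap in shCtrl. The summed FPKM of the 10 members amounted to 1961, 3007 and 2255 for shCtrl replicates 1, 2 and 3, and to 1569, 1578 and 1512 for shNAT10. All shCtrl sums lay above all shNAT10 sums (2407 ± 539 against 1553 ± 36, SD, n = 3 each, exact permutation test, two-sided, p = 0.1, the smallest that 3 against 3 libraries allow). As a share of all FPKM, the members took 0.564, 0.769 and 0.624% in shCtrl and 0.461, 0.462 and 0.448% in shNAT10. S100A6 alone made up 51.9 to 53.5% of the sum in each library, so the sum mostly follows that gene. In such bulk libraries, fewer cells that make an mRNA and less of it per cell cannot be told apart.

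**Figure D2:**
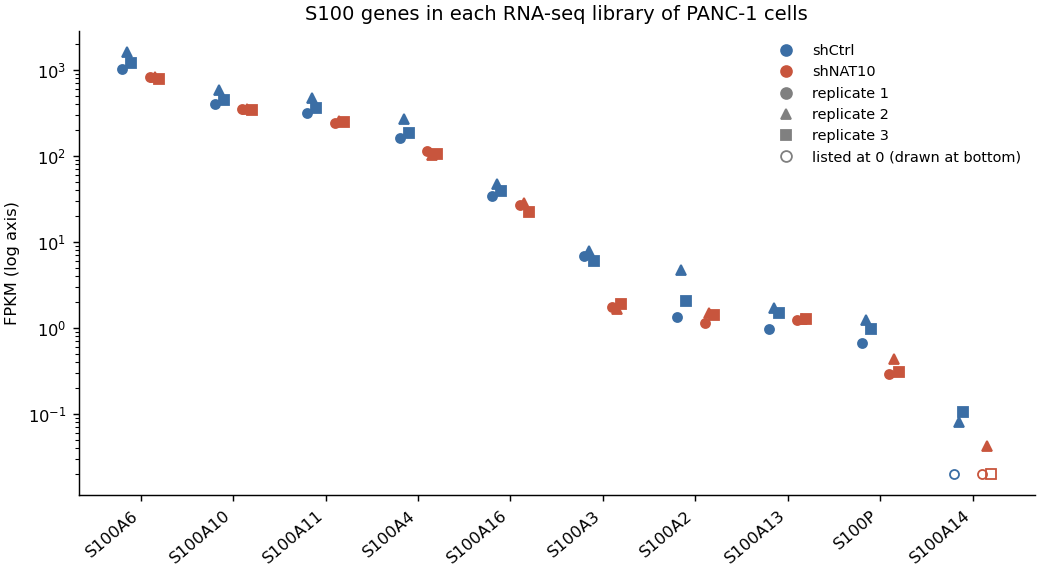
FPKM of the 10 S100 genes (y axis, log scale) in the 3 shCtrl (blue) and 3 shNAT10 (red) RNA-seq libraries, 1 point per library, genes ordered by their mean in shCtrl. Open symbols at the bottom are libraries in which S100A14 was listed at 0. The groups are apart for S100A6, S100A10, S100A11, S100A4, S100A16, S100A3 and S100P and overlap for S100A2, S100A13 and S100A14.

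Of the 8 members tested, 6 were lower in shNAT10 (S100A3, S100A4, S100A6, S100A10, S100A11 and S100A16; adjusted p under 0.05, limma), 0 were higher, and S100A2 and S100A13 did not pass. Beside this, 21.2% of the 12982 tested genes were called lower and 20.8% higher, and among the 3036 genes as long as the tested members 25.6% were called lower. The median log2 fold change of the 8 members was -0.62, against -0.01 over all tested genes and -0.13 over genes as long as the members. These medians include shCtrl replicate 2, and the last is matched on length but not on level. With quantile normalization, the 4 members with a mean of at least 100 FPKM had smaller changes. Their values were -0.81 for S100A4, -0.46 for S100A6, -0.29 for S100A10 and -0.40 for S100A11. All 6 called members had every shNAT10 library under every shCtrl library, as did 28.6% of the tested genes. Only S100A3 fell beyond 2-fold, which 3.57% of the tested genes did. Without shCtrl replicate 2, after the length correction, and with both together, the same 6 members were called lower. S100P and S100A14 did not reach 1 FPKM in 3 libraries and were not tested.

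S100A3 (ENSG00000188015, chr1:153547329-153549372, minus strand), best known from the cuticle of hair, had the largest change among the tested members. It was at 6.94, 7.91 and 6.11 FPKM in shCtrl and at 1.77, 1.68 and 1.92 FPKM in shNAT10. The 3 shNAT10 libraries lay close together, and even the highest was below every shCtrl library. The log2 fold change was -1.90 ± 0.12 (SE, 95% interval -2.18 to -1.62, adjusted p = 9.76e-05). The mean FPKM, taken apart from that fit, was 74.4% lower in shNAT10. These values rest on 103, 137 and 123 recovered reads in shCtrl and 24, 28 and 29 in shNAT10. The log2 fold change was -1.81 without shCtrl replicate 2 and -1.78 with the length correction.

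S100A4 (ENSG00000196154, chr1:153543613-153550136, minus strand), also called metastasin, binds the heavy chain of non-muscle myosin and takes filaments apart. Its span contains that of S100A3 on the same strand, but the exons of the genes share no base. It was at 163, 267 and 188 FPKM in shCtrl and 114, 103 and 105 FPKM in shNAT10. All shNAT10 libraries lay below all shCtrl libraries, with shCtrl replicate 2 far above the others. The log2 fold change was -0.91 ± 0.17 (SE, adjusted p = 0.00559), -0.71 without shCtrl replicate 2 and -0.79 with the length correction. MYH9, the non-muscle myosin heavy chain that S100A4 binds, moved the other way, from 150, 140 and 138 FPKM in shCtrl to 234, 228 and 221 FPKM in shNAT10 (log2 fold change 0.67 ± 0.06, adjusted p = 0.000361).

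S100A6 (ENSG00000197956, chr1:153534599-153536244, minus strand), or calcyclin, was the most abundant member. It was at 1024, 1610 and 1201 FPKM in shCtrl and 829, 833 and 784 FPKM in shNAT10. No shNAT10 library reached the lowest shCtrl library. This is a log2 fold change of -0.62 ± 0.16 (SE, adjusted p = 0.0175), of -0.44 without shCtrl replicate 2 and of -0.51 with the length correction. The call was lost when any shNAT10 replicate was left out (adjusted p = 0.0567, 0.0538 and 0.065 without replicates 1, 2 and 3) and with no filter on low genes (adjusted p = 0.0807). CACYBP, named for its binding of calcyclin and a part of a ubiquitin ligase complex, had a log2 fold change of -0.04 (95% interval -0.24 to 0.16, adjusted p = 0.751), which turned to 0.03 without shCtrl replicate 2 and 0.04 with the length correction. The FPKM of S100A4 over that of S100A6 was 0.159, 0.166 and 0.157 in shCtrl and 0.138, 0.123 and 0.133 in shNAT10. The ratio was lower in every shNAT10 library (exact permutation p = 0.1, the smallest possible).

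S100A10 (ENSG00000197747, chr1:151982915-151994390, minus strand), or p11, holds a calcium-free open form and joins annexin A2 in a tetramer at the plasma membrane, where it is known as a receptor for plasminogen. It was at 409, 595 and 452 FPKM in shCtrl and 351, 352 and 346 FPKM in shNAT10. The shNAT10 libraries were nearly equal and all below the lowest shCtrl library. The log2 fold change was -0.45 ± 0.13 (SE, adjusted p = 0.031), the smallest among the called members, -0.30 without shCtrl replicate 2 and -0.34 with the length correction. The call was lost without shCtrl replicate 3 (adjusted p = 0.0627), without shNAT10 replicate 1, 2 or 3 (0.0894, 0.0872 and 0.0936) and with no filter (0.0977). ANXA2, the annexin of the tetramer, was at 703, 872 and 761 FPKM in shCtrl and 713, 702 and 675 FPKM in shNAT10, with overlapping groups (log2 fold change -0.15, 95% interval -0.37 to 0.06, adjusted p = 0.206). S100A10 over ANXA2 in FPKM was 0.582, 0.683 and 0.593 in shCtrl and 0.493, 0.502 and 0.512 in shNAT10, lower in every shNAT10 library (exact permutation p = 0.1, the smallest possible). The counting lengths were 601 bases for S100A10 and 3528 for ANXA2, so the length trend of shCtrl replicate 2 can enter this ratio. The ratio was not corrected for length. The log2 fold change of ANXA2 was -0.07 without shCtrl replicate 2 and -0.13 with the length correction.

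S100A11 (ENSG00000163191, chr1:152032506-152047907, minus strand), or calgizzarin, pairs with annexin A1 and takes part in membrane repair. It was at 321, 472 and 364 FPKM in shCtrl and 242, 256 and 250 FPKM in shNAT10. The groups did not overlap. S100A11 had a log2 fold change of -0.61 ± 0.14 (SE, adjusted p = 0.0114), of -0.45 without shCtrl replicate 2 and of -0.50 with the length correction. Of 8 S100A11 pseudogenes in the table, which could share reads with it, 7 were listed at 0 in every library and the other had at most 1 read. How reads that fit more than 1 place were counted was not examined, so these counts cannot show whether reads were shared. ANXA1 rose, from 44.5, 51.0 and 46.5 FPKM in shCtrl to 58.4, 62.5 and 63.3 FPKM in shNAT10 (log2 fold change 0.38 ± 0.08, adjusted p = 0.00745).

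S100A16 (ENSG00000188643, chr1:153606886-153613145, minus strand) is a widely expressed member. It was at 34.2, 47.6 and 39.8 FPKM in shCtrl and 27.3, 28.4 and 22.6 FPKM in shNAT10, again without overlap. Its log2 fold change was -0.63 ± 0.14 (SE, adjusted p = 0.0116), and -0.50 both without shCtrl replicate 2 and with the length correction. S100A3, S100A4, S100A11 and S100A16 were called lower under each of the 18 settings tried.

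S100A2 (ENSG00000196754, chr1:153561108-153567890, minus strand), a member expressed in epithelia, was at 1.33, 4.70 and 2.04 FPKM in shCtrl and 1.14, 1.49 and 1.42 FPKM in shNAT10. The groups overlapped, and shCtrl replicate 2 was more than any other library. Its log2 fold change was -0.77 ± 0.41 (SE, 95% interval -1.74 to 0.21, adjusted p = 0.177). It was -0.28 without shCtrl replicate 2, -0.64 with the length correction and -1.15 without shCtrl replicate 1 (adjusted p = 0.0332), the single setting that called the gene.

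S100A13 (ENSG00000189171, chr1:153618787-153631360, minus strand), known for carrying FGF1 out of cells by a route without a signal peptide, was at 0.977, 1.72 and 1.5 FPKM in shCtrl and 1.24, 1.27 and 1.29 FPKM in shNAT10. The shNAT10 libraries lay inside the range of the shCtrl libraries. The log2 fold change was -0.09 ± 0.23 (SE, 95% interval -0.63 to 0.44, adjusted p = 0.761), and its sign turned without shCtrl replicate 2 (0.06) and with the length correction (0.02). Its exons share 536 bases with AL162258.1 on the same strand and 235 bases with S100A1 on the other strand. The library kit kept strand, but the strand setting of the counting is not given in the sources used here, so its level is uncertain.

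S100P (ENSG00000163993, chr4:6693069-6697170, plus strand), which activates ezrin and binds RAGE from outside the cell, is the member outside chromosome 1. It was at 0.676, 1.24 and 0.964 FPKM in shCtrl and 0.296, 0.442 and 0.310 FPKM in shNAT10. These are 15, 32 and 29 reads against 6, 11 and 7 reads, and the FPKM of the groups did not overlap. With no filter on low genes the log2 fold change was -1.22 (adjusted p = 0.0435). S100A14 (ENSG00000189334, chr1:153614255-153616986, minus strand), an epithelial member, had 0, 2 and 3 reads in shCtrl and 0, 1 and 0 reads in shNAT10. A count of 0 allows up to 3 reads, which is 0.105 to 0.156 FPKM in these libraries, so a difference was not detectable at this depth. These limits cover counting error only.

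**Figure D3:**
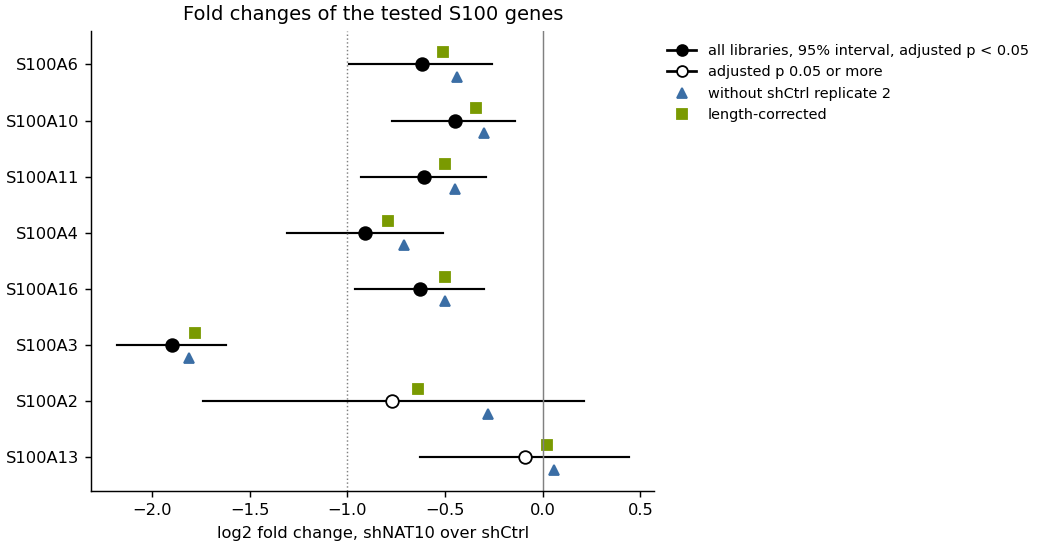
Log2 fold change (x axis, shNAT10 over shCtrl) of the 8 tested S100 genes, ordered by level in shCtrl. Black circles and bars are the limma estimate and its 95% interval with all libraries (filled, adjusted p under 0.05), triangles the estimate without shCtrl replicate 2 and squares the estimate after the length correction. S100A3 lies at -1.90, the other 5 called genes lie between -0.91 and -0.45, and each of these 6 stays below 0 under both alternatives, while S100A13 crosses 0.

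The mRNAs of proteins that bind S100 proteins or act with them, here called partners, were called in both directions. Of 35 partner genes, 26 were tested, 6 were lower and 7 were higher, with a median log2 fold change of 0.06, beside 21.2% of all tested genes called lower and 20.8% higher. The shares of the partners are near these, so the counts are no result about the partners, and the same holds for the smaller counts by role. Without shCtrl replicate 2 all 13 called partners were called again, and with the length correction 12 were, without MDM2. Of the plasminogen system, whose activation S100A10 is known to favour, 3 genes were tested and 2 fell. PLAUR, the urokinase receptor, went from 5.08, 6.23 and 5.36 FPKM to 2.20, 2.11 and 2.39 FPKM (log2 fold change -1.28 ± 0.11, adjusted p = 0.000285). PLAU, urokinase itself, went from 92.2, 111 and 101 FPKM to 42.9, 43.4 and 44.5 FPKM (log2 fold change -1.21 ± 0.08, adjusted p = 0.000116). Plasminogen (PLG) had at most 3 reads in a library.

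Of the 8 cytoskeletal and adaptor partners tested, 3 rose and 1 fell (20.8% and 21.2% over all tested genes). Beside MYH9, EZR, the ezrin that S100P activates, was at 136, 142 and 128 FPKM in shCtrl and 167, 163 and 161 FPKM in shNAT10 (log2 fold change 0.28 ± 0.06, adjusted p = 0.0137). IQGAP1, a scaffold of the actin cortex, was at 126, 79.1 and 110 FPKM in shCtrl and 162, 150 and 163 FPKM in shNAT10 (log2 fold change 0.62 ± 0.16, adjusted p = 0.0208). The log2 fold change of IQGAP1 was 0.42 without shCtrl replicate 2 and 0.47 with the length correction. The calls of EZR and IQGAP1 were each lost in 4 of 18 settings. MYH9, EZR and IQGAP1 rose without overlap of the groups, while the gene that fell was DLC1. It was at 6.44, 4.47 and 6.10 FPKM in shCtrl and 3.30, 2.84 and 3.16 FPKM in shNAT10 (log2 fold change -0.84 ± 0.15, adjusted p = 0.00489). Of the 7 chaperone and nuclear partners tested, 2 rose and 1 fell (again beside 20.8% and 21.2%). FKBP4, an immunophilin that works with HSP90, went from 24.3, 31.5 and 26.4 FPKM to 57.8, 54.1 and 53.0 FPKM (log2 fold change 1.01 ± 0.10, adjusted p = 0.000514). S100PBP, a nuclear binding protein of S100P, had a log2 fold change of 0.14 (95% interval -0.03 to 0.31, adjusted p = 0.172).

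The remaining called partners were named after their values were seen, to account for the counts. They were MDM2 (log2 fold change 0.41) and SYT1 (0.51), which were higher, and ANXA5 (-0.39), SUGT1 (-0.46) and the receptor BSG (-0.36, adjusted p = 0.0482), which were lower. The call of BSG was lost in 9 of 18 settings, among them the replicate block (adjusted p = 0.0528), median centring (0.0594), quantile normalization (0.0661), and without shCtrl replicate 3 (0.102) or shNAT10 replicate 1, 2 or 3 (0.102, 0.115 and 0.152). MDM2 was at 0.19 with the length correction (adjusted p = 0.0848) and lost its call in 5 of 18 settings. Of the 5 annexins, ANXA1 rose, ANXA5 fell and 3 did not pass. The 7 higher calls became 4 (ANXA1, FKBP4, MYH9 and SYT1) without shNAT10 replicate 1, 2 or 3. None of the 3 channel partners reached the filter.

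**Figure D4:**
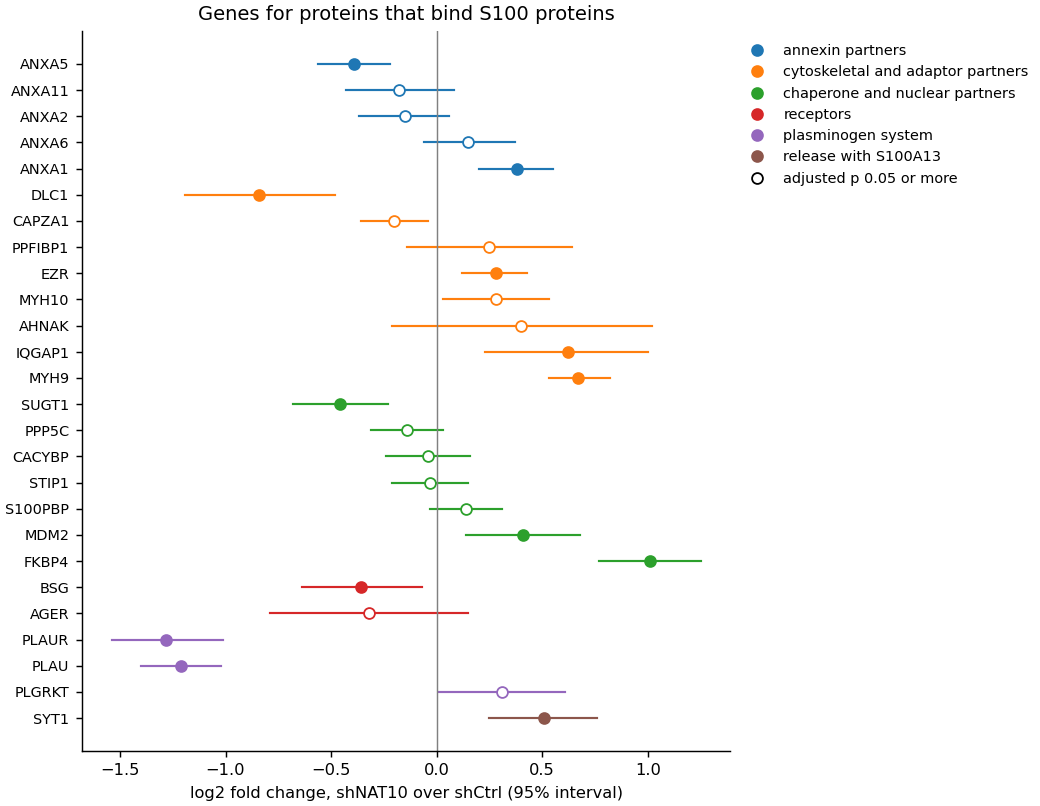
Log2 fold change (x axis, shNAT10 over shCtrl) with its 95% interval for the 26 tested genes whose proteins bind S100 proteins or act with them, coloured by role. Filled circles passed adjusted p under 0.05 in limma, open circles did not. The 2 called genes of the plasminogen system lie at -1.28 and -1.21, while MYH9, IQGAP1, EZR and FKBP4 lie above 0.

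The other S100 genes were near silent in PANC-1. Of 11, none reached the filter and 7 (S100A7A, S100A7L2, S100A8, S100A9, S100A12, S100B and S100G) were listed at 0 in every library, so no limma test was made of them. S100A1, the heart and muscle member, was at 0.528, 0.660 and 0.649 FPKM in shCtrl and 0.337, 0.255 and 0.173 FPKM in shNAT10, under the filter, and its exons overlap those of S100A13. Of the members, 9 lie on chromosome 1 between positions 151982915 and 153631360, in the epidermal differentiation complex, with the genes of the cornified envelope. The table holds 85 annotated genes there, 67 of them not S100 genes, and 57 of these had no value above 0. Only FLG-AS1, an antisense RNA of filaggrin, reached the filter (log2 fold change -0.27, adjusted p = 0.393). With FLG-AS1 the only tested gene there outside the family, the neighbours of the members could not be compared with them.

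S100A3 had the lowest p among the members, and the 5 tested genes whose log2 values over the 6 libraries were most like it were HNRNPA1L3 (Pearson r = 0.9993), LRRC59 (0.9991), LRP5L (0.9988), CHST10 (0.9988) and IRF1 (0.9986). All 5 were lower in shNAT10. HNRNPA1L3 went from 38.1, 46.4 and 35.3 FPKM to 11.4, 10.8 and 11.8 FPKM and may share reads with its close relative HNRNPA1. CHST10, a sulfotransferase, went from 13.9, 15.8 and 13.4 FPKM to 4.71, 4.76 and 4.96 FPKM, and IRF1, a transcription factor of the interferon response, from 5.37, 6.32 and 5.13 FPKM to 2.12, 1.93 and 2.16 FPKM. With 6 libraries in 2 groups, these correlations mostly describe the difference between the groups.

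In acRIP-seq, 1 list of peaks was deposited per group (16892 peaks on 8244 genes for shCtrl and 15813 peaks on 7979 genes for shNAT10), so no value has a replicate and no test was made. Of the 10 members, 6 had a peak in the shCtrl list (S100A2, S100A4, S100A11, S100A13, S100A14 and S100A16) and 5 in the shNAT10 list (all of these but S100A2). S100A14 and S100P are among the 10 but were not tested, so the shares of tested genes have another base. Among the tested genes, 49.6% had a peak in shCtrl, 47.7% in shNAT10 and 33.7% in both. Of genes as long as the tested members, 35.0% had a peak in shCtrl, 32.5% in shNAT10 and 18.9% in both. Peaks of the 2 lists shared bases for 4 members, S100A4, S100A11, S100A14 and S100A16, and for each the shared part was over 50% of either peak. The shares in both lists given above count genes with any peak in each list, whether or not the peaks share bases. Fold enrichment, the ratio of IP over input that the peak caller gave, had a median of 49.3 in the shCtrl list and 45.2 in the shNAT10 list.

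Members with much mRNA were found both with and without peaks. Of the 4 members with a mean of at least 100 FPKM, S100A4 and S100A11 had a peak in each list, while S100A6 and S100A10 had none in either. Among all tested genes at that level, 63.8% had a peak in shCtrl and 62.7% in shNAT10. S100A3 and S100P also had no peak. Of the 6 called members, S100A3, S100A6 and S100A10 thus had a peak in neither list. Most genes as long as the tested members lacked a peak as well, since 35.0% had one in shCtrl and 32.5% in shNAT10. The count is therefore no result about the members. A peak missing from a list does not show that the mark is absent.

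The peaks of S100A4 and S100A11 were broad, with a low fold enrichment but very low p-values in the lists (log10 p of -779 and -750 for S100A4 in shCtrl and shNAT10, and of -1320 and -1580 for S100A11). That of S100A4 covered all 303 bases of the coding sequence in both lists, with a fold enrichment of 10.9 in shCtrl and 8.54 in shNAT10, under the medians of the lists. That of S100A11 covered 285 coding bases in shCtrl and 226 in shNAT10, with a fold enrichment of 10.6 and 23.1. S100A16 had a stronger peak across the end of the coding sequence and the start of the 3′ UTR, with 228 in shCtrl and 108 in shNAT10. Among the 4 members with overlapping peaks, the fold enrichment was lower in shNAT10 for S100A4 and S100A16. It was higher for S100A11 and for S100A14 (580 in shCtrl and 1040 in shNAT10), with no replicate to set the error.

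S100A14, nearly silent in the RNA-seq, had the highest fold enrichment of the members. Its peak lay in the 3′ UTR in shCtrl (209 bases, fold enrichment 580) and in the last 21 coding bases and the 3′ UTR in shNAT10 (357 bases, 1040). These values stood at percentiles 86.0 and 91.0 of their lists. A ratio of IP over input rests on few input reads where the RNA is scarce, and the reads behind the peaks were not analysed here.

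S100A2 had a peak in shCtrl alone (chr1:153561403-153563463 in 2 blocks, fold enrichment 93.7), of which 71 bases are coding and 167 lie in the 3′ UTR of the 1 transcript that matches both blocks. S100A13 had a peak in each list, but apart from each other. The shCtrl peak (chr1:153627385-153627535, fold enrichment 18.0) had 53 of its 151 bases in a 5′ UTR exon and was the least certain of the members' peaks, with a log10 false discovery rate of -1.19 in the list, which is above the usual 5%, and the shNAT10 peak (180 bases, all coding, fold enrichment 5.41) covered the EF-hand loop.

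The EF-hand loops shown above lay wholly under a peak of both lists in 3 members (S100A4, S100A11 and S100A16), under the shNAT10 peak in S100A13, and under no peak in 3 members (S100A3, S100A6 and S100P). The coding sequences under these peaks are short, and the peaks covered much of them (all 303 bases in S100A4). Cover of the loop therefore does not set it apart from other coding bases. The shCtrl peak of S100A2 also covered the bases that encode its loop in the reference transcript, although the transcript matching the peak reads them as 3′ UTR. The motif CNNCNNCNNCNN, which has been tied to ac4C and was searched on the mRNA strand alone with overlapping matches counted, was found at 1 place in the printed stretch of S100A4, 1 in that of S100A11, 6 in that of S100A16 and 0 in that of S100A13. Of coding windows of the same lengths, 50.9, 50.3, 43.8 and 45.2% held at least 1 match. A match is a description of the letters and not a modified site.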

How the data were processed

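RNA-seq (3 shCtrl and 3 shNAT10 libraries of PANC-1 cells) and acRIP-seq (3 IP and 3 input libraries per group) were analysed, with groups taken from the labels. The submitters' processing notes name HISAT2, HTSeq 0.11.0 and DESeq2 1.22.2 and the builds hg38 and GRCh38. The authors deposited FPKM per gene and library, scaled by gene length and by the reads of the library. The authors deposited 1 acRIP peak list per group, with each peak's fold enrichment as a ratio, its p-value, and the log10 of its p-value and false discovery rate as a score. The peak caller is not given in the sources used here. Positions and sequences are from GENCODE v29 on GRCh38.

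For the tests, log2(FPKM + 0.1) values were fitted by limma 3.58.1 (R 4.3.3) with a mean-variance trend, in the 12982 genes with at least 1 FPKM in at least 3 libraries. p-values were adjusted over all of these by Benjamini-Hochberg. Fold changes are on that scale and understate those of low genes. Whole reads were recovered from the steps of the FPKM values (within 0.02 of a whole number for 29693 of 29695 genes above 0) and gave depths of 15831720 to 23521762. The S100 list, the partner and marker lists and the tests were chosen with earlier results of these data known. Partners were named if among the 6 called genes with the largest change, with ANXA2, ANXA1, CACYBP, MYH9, EZR and S100PBP named whatever their values, and the 5 genes most like the member with the lowest p were named. Some single genes are not reported here and were left out of the partner lists. The steps were tested on simulated data.

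Alternatives were a pseudocount of 1, no filter, a minimum of 5 FPKM, TPM, median centring, quantile normalization, a fit with the replicate number as block, no trend, a correction of each library for length by a spline with 5 degrees of freedom, voom on recovered reads, and each library left out. The length correction without shCtrl replicate 2, the transcript on which each peak was placed and the ratios between members were chosen after seeing the data. For peaks they were the 50% with the highest fold enrichment, the 50% with the lowest p-values, and a reciprocal overlap of at least 50%. Python 3.11.15, NumPy 2.4.6, pandas 2.3.3 and matplotlib 3.10.9 were used.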

Additional observations from a re-analysis of the deposited data

How the results depend on the processing

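S100A3, S100A4, S100A11 and S100A16 were called lower under each of the 18 settings, and no setting called a member higher. The number called lower was 5 with no filter, where S100P replaced S100A6 and S100A10, and 4 to 7 when a library was left out. The number beyond 2-fold was 2 with no filter and 1 to 3 when a library was left out, with 3 (S100A2, S100A3 and S100A4) without shCtrl replicate 1. S100A13 turned to 0.01 on the log2 scale with TPM, 0.02 with the length correction, 0.06 without shCtrl replicate 2 and 0.12 with both of the last, and lay between -0.32 and 0.06 when a library was left out. With shCtrl replicate 2 left out and the length correction, S100A6 was at -0.39 and S100A10 at -0.25, and both stayed called. The 7 partner genes called higher became 4 to 9 when a library was left out.

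With the 50% of peaks highest in fold enrichment, 3 members kept a shCtrl peak, 2 a shNAT10 peak and 2 overlapping peaks. With the 50% lowest in p, 3 kept a shCtrl peak, 4 a shNAT10 peak and 3 overlapping peaks, so the order of the lists turned round. The causes of these changes were not tested.

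Same-numbered libraries of the groups share only a number: their deviations correlated at -0.0432, 0.0643 and 0.107 for replicates 1, 2 and 3, and 2 of the 3 shCtrl libraries correlated best with their own number. With the replicate block, 6 members were called lower, 1 beyond 2-fold and 0 higher. Depth limits S100A14 and S100P most, and the single peak list per group leaves acRIP-seq without an error.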
